A study of Mus musculus with 242 samples.

Results

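The circadian clock genes Arntl, Npas2, Per1, Per2, Per3, Ciart, Nr1d1 and Nr1d2 and the clock output genes Dbp and Tef were followed through 242 mouse liver arrays. These 10 genes, of 18193 genes measured, were taken as a named set, each gene through the brightest of its probe sets on average. The set was chosen with earlier results of these data known, so its counts below are not an independent test. The livers came from female B6C3F1 mice, a hybrid strain used in toxicity testing, which were 5 weeks old at the start, were exposed for 13 weeks and were killed at 18 weeks of age. By the array titles each mouse gave 1 Affymetrix Mouse430_2 array with 1 colour, although replicates 3 and 4 of control set ACO1 carry the same individual label. A group held 3 to 5 mice, in 46 treated groups with 183 arrays and 14 control sets with 59 arrays. Nothing in the labels ties mice to litters or cages, so the p-values rest on the spread between mice within groups. The limma fit pools that spread over all groups of a run.

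The labels hold 5 run codes, from which 4 runs were made. Run A joins 2 codes that are mixed within some groups, FCO2 and MALA among them, and the code was a block in its fit. Treated groups were set against a control set of their own run and vehicle. In run A, diet groups received 1250 ppm 2,2-bis(bromomethyl)-1,3-propanediol (BBMP), 200 ppm diazinon (DIAZ), 14800 ppm malathion (MALA) or 10000 ppm 4-nitroanthranilic acid (NAAC), and their control set was FCO2. The malathion titles give a higher concentration than the dose label used here. Corn oil gavage groups of run A received 100 mg/kg benzene (BENZ), 200 mg/kg coumarin (COUM) or 62 mg/kg 1,2-dibromoethane (DBET), with control set CCO2. Water gavage groups of run A received 250 mg/kg 2-chloromethylpyridine hydrochloride (CMPH) or 50 mg/kg N-methylolacrylamide (MACR), with control set WCO1. Set CCO3 of run A is labelled distilled water while its titles look like corn oil titles, and the label was followed. In run B, mice inhaled 1250 ppm tetrafluoroethylene (TFEL) or 50000 ppm of the compound labelled Tetrafluororethane (TFEA), with air controls ACO1. The run also held gavage with 93 mg/kg iodoform (IODO) or 3925 mg/kg trichlorofluoromethane (TCFM), with corn oil controls CCO4, and diets with 20000 ppm 1-amino-2,4-dibromoanthraquinone (ADBQ) or 1000 ppm tris(2,3-dibromopropyl)phosphate (TDPP), with chow controls FCO1. In run C, mice received 240 mg/kg 2,3-benzofuran (BFUR) in corn oil by the dose label, while the titles give another number, with control set CornOil-C. The diets of run C held 2000 ppm N-(1-naphthyl)ethylenediamine dihydrochloride (NEDA), 2000 ppm 1,5-naphthalenediamine (NPDA) or 8187 ppm pentachloronitrobenzene (PCNB), with control set RodentChow-C.

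Run D held the dose series. Methylene chloride (MECL) was inhaled at 100, 500, 2000, 3000 and 4000 ppm and ethylene oxide (ETOX) at 100 ppm, with air controls ACO4. Naphthalene (NPTH) was inhaled at 0.5, 3, 10, 20 and 30 ppm, with air controls ACO5. Propylene glycol mono-t-butyl ether (PGBE) was inhaled at 25, 75, 300, 800 and 1200 ppm and vanadium pentoxide (VANP-2) at 2 mg/m3, with air controls ACO3. 1,4-Dichlorobenzene (DCBZ) was given in corn oil at 100, 300, 400, 500 and 600 mg/kg, with controls CCO5, and 1,2,3-trichloropropane (TCPN) at 2, 6, 20, 40 and 60 mg/kg, with controls CCO6. The labels name no control set for a treated group, and sets were paired by the animal numbers that follow those of the treated mice. The hour of day at which livers were taken is not given in the sources used here, so its part in any difference below was not tested.

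The circadian clock is a feedback loop of transcription that runs in nearly all cells and gives the liver daily cycles of metabolism. Arntl, also called BMAL1, pairs with CLOCK or with Npas2 and switches on genes through E-boxes in their promoters. Among those genes are the Per genes and Ciart, whose proteins repress the pair, and the nuclear receptors Nr1d1 and Nr1d2 (REV-ERB alpha and beta), which repress Arntl and Npas2 through a response element called RRE. Dbp and Tef are transcription factors of the PAR bZIP family that act on D-boxes and pass the rhythm on to liver metabolism. In rodent liver Arntl and Npas2 therefore peak at a time of day far from the peak of Dbp, Per3, Nr1d1 and their like.

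Promoters of RefSeq on GRCm38.p6 were searched on both strands for these elements, from 250 bases before to 50 bases after each start, since the genes below move in 2 opposed groups. Of the 10 genes, 9 had an entry, with 12 windows in all, among 32851 windows of the table. The E-box CACGTG was in 4 of the 12 windows and in 7.15% of all windows. The 4 belong to Ciart, Per1 and Tef, the last with 2 starts. The E-box variant CACGTT was in the Nr1d1 window and in 4.68% of all windows. The D-box TTATGTAA was in the Per3 window and in 0.938% of all windows, and the RRE core TAGGTCA was in 1 window of Arntl and in 2.61% of all windows. These are matches of letters and not shown sites. The stretches that hold them are shown with the element in capitals, each on the strand of its gene, to set the elements of the repressors and outputs beside that of Arntl.
Ciart, chr3:95882254-95882358, minus strand, 3 E-boxes: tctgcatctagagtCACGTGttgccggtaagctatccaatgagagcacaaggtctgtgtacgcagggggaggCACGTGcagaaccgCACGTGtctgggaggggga
Per1, chr11:69098759-69098813, plus strand, E-box: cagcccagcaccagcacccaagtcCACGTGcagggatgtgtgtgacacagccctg
Tef, chr15:81802523-81802572, plus strand, E-box: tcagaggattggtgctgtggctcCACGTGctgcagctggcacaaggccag
Per3, chr4:151044801-151044885, minus strand, 2 D-boxes: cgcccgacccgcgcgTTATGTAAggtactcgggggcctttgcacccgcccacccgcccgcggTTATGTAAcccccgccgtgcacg
Arntl, chr7:113207530-113207558, plus strand, RRE core just after the second start: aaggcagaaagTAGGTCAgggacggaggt

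Values are log2 levels, log2 of the probe set signal plus a pseudocount of 17.3, and folds of dim genes are therefore understated. The hepatocyte genes Alb, Ttr and Apoa1 had levels of 15.03 to 16.84, 15.26 to 16.97 and 15.67 to 17.11 in all 242 arrays. RNA integrity numbers lay between 4.7 and 7.8 in run A and between 7.1 and 9.4 in the other runs. In whole liver, fewer cells of a type and less RNA per cell cannot be told apart. Below, called means a fold of at least 1.5 together with an adjusted p under 0.05 from limma, by the method of Benjamini and Hochberg over the 18193 genes.

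Dbp had by far the widest range of the 10 genes. Its level ran over 242 arrays from 4.53 in a mouse given 100 ppm methylene chloride to 13.39 in a mouse given CMPH, a 465-fold span, with a median of 7.77. Nr1d1 spanned 71.6-fold (5.05 to 11.21, median 9.34) and Per1 49.6-fold (4.69 to 10.32, median 8.16). Tef had the narrowest range, 8.84-fold (9.38 to 12.53, median 10.43). The other 6 genes spanned 23.5-fold (Per2) to 45.0-fold (Ciart). Ciart was dim in most livers, with a median of 5.32 and a maximum of 9.96. Arntl had a median of 9.73 and reached 10.57 at most, while its lowest array was at 5.15, in the same CMPH mouse that had the highest Dbp.

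Mice of the same control set already differed in several of these genes. The pooled SD within control sets was 1.18 for Dbp, 14th among 18193 genes, 1.12 for Nr1d1, 21st, and 1.01 for Per1, 42nd, against a median of 0.44 over all genes. Per3 (0.75), Nr1d2 (0.73), Npas2 (0.69), Ciart (0.57) and Per2 (0.54) were also above that median. Tef (0.41) and Arntl (0.37) were below it. Within treated groups the SD of Dbp was 1.37, the second highest of all genes. A comparison of 3 to 5 mice against as many therefore had little precision for Dbp, Nr1d1 and Per1, and the same log2 difference had a far smaller SE in Arntl or Tef.

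The order of group means ran nearly opposite in the activator and the outputs. Dbp was highest in the chow control set FCO2 (12.44 ± 0.88, SD, n = 4), followed by CMPH (12.08 ± 0.89, n = 4), 4000 ppm methylene chloride (11.93 ± 0.97, n = 4) and NEDA (11.93 ± 0.42, n = 3), whose ranges all overlap. It was lowest at 100 ppm methylene chloride (5.82 ± 1.12, n = 4), with PGBE at 300 ppm (6.84 ± 0.35) and naphthalene at 0.5 ppm (6.91 ± 0.15) next. Arntl was lowest in FCO2 (7.51 ± 0.65) and CMPH (7.55 ± 1.64), which overlap, and then in 4000 ppm methylene chloride (8.23 ± 1.62). It was highest in ACO4 (10.27 ± 0.24, n = 5), next to naphthalene at 0.5 ppm (10.17 ± 0.06) and CCO5 (10.13 ± 0.19), again with overlapping ranges. Across the means of the 60 groups, Arntl had r = -0.92 with Dbp, -0.93 with Tef, -0.86 with Per3 and 0.84 with Npas2. This describes the groups, which share runs and handling.

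**Figure D1:**
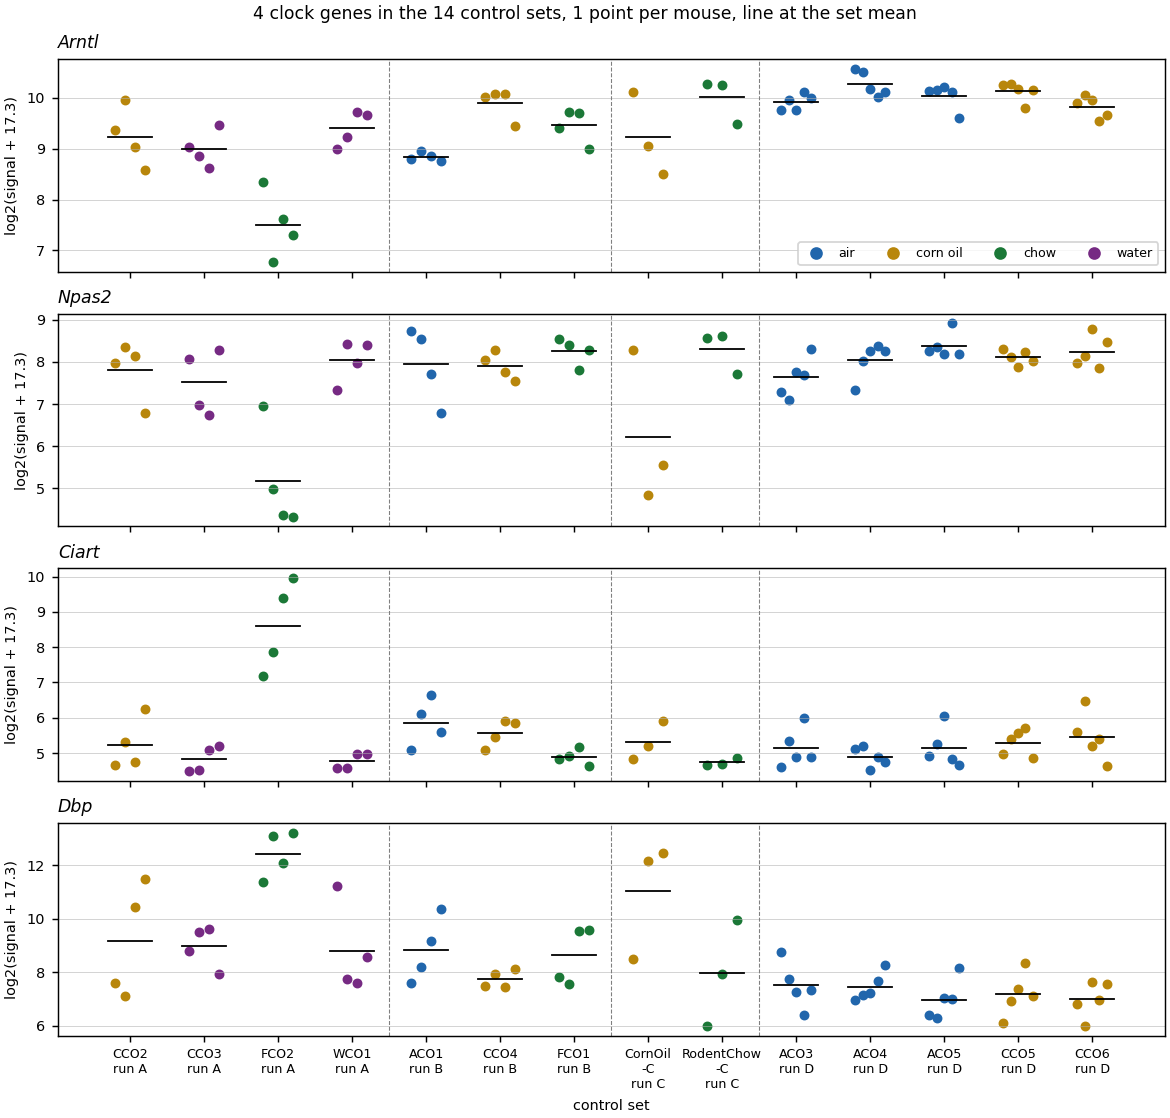
Log2 level of Arntl, Npas2, Ciart and Dbp (vertical axes) in each mouse of the 14 control sets, coloured by vehicle, with a line at the set mean and dashed lines between runs. The 4 FCO2 mice sit apart with Ciart at 7.19 to 9.96 and Dbp at 11.38 to 13.22.

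The control sets asked how far these genes differ between control livers. Over the 20 comparisons of control sets within a run, 3 of 200 gene comparisons were called, while 2.21% were called over all genes. In the 5 comparisons of sets labelled with the same vehicle, CCO3 counted as water, the lowest adjusted p of the 10 genes was 0.531. The chow set FCO2 of run A stood at an extreme of the 14 control sets for 9 of the 10 genes, lowest in Arntl and Npas2 and highest in Per1, Per2, Per3, Ciart, Nr1d2, Dbp and Tef. For Nr1d1 the air set ACO1 was highest (10.11). How often FCO2 was an extreme set over all genes was not counted, and the group means of these genes are related, as given above.

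Against the water set WCO1, FCO2 differed in 9 of the 10 genes at an unadjusted p under 0.05, beside 6.32% of all genes, but limma called none after adjustment. Ciart was at 7.19, 7.87, 9.39 and 9.96 in FCO2 mice, against 4.57, 4.59, 4.98 and 4.97 in WCO1 mice, a log2 difference of 3.83 ± 0.86 (SE) or 14.2-fold with a limma adjusted p of 0.151. Npas2 was at 6.96, 4.99, 4.38 and 4.33 in FCO2 mice, against 7.34, 8.43, 7.98 and 8.41 in WCO1 mice, a difference of -2.87 (adjusted p = 0.207). Dbp was at 11.38, 13.09, 12.07 and 13.22 in FCO2 mice, against 11.24, 7.75, 7.60 and 8.55 in WCO1 mice, a difference of 3.66 ± 1.28 (adjusted p = 0.517). The FCO2 values of all 3 genes lie outside the WCO1 range. Arntl, at 8.34, 6.77, 7.61 and 7.31 in FCO2 and 9.0, 9.22, 9.72 and 9.66 in WCO1, did not overlap either (-1.89, adjusted p = 0.373). The share of all genes without overlap between FCO2 and WCO1 was not counted. RNA integrity was 6.7 to 7.2 in FCO2 and 5.7 to 7.3 in WCO1. With the order of the animal number as a further term of the model, added after the data were seen, limma called Ciart and Npas2 in this comparison (adjusted p = 0.00196 for each), but not Dbp (0.051) or Arntl (0.076). The term takes up spread within groups in genes that follow that number, so these calls are not an independent test.

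In run B, Arntl was at 8.79, 8.95, 8.85 and 8.76 in air controls ACO1, against 10.02, 10.07, 10.08 and 9.45 in corn oil controls CCO4. The groups do not overlap, and the difference was -1.07 ± 0.26 (limma adjusted p = 0.00229). This was the 1 gene of the 10 called there, in a comparison that called 28.5% of all genes. The call was lost with the 3′/5′ ratio of Gapdh, a measure of RNA integrity, as a covariate (-1.37, adjusted p = 0.0716), and that log2 ratio was -0.54 to -0.40 in ACO1 and -0.64 to -0.62 in CCO4. The second Arntl probe set gave -0.03 (adjusted p = 0.963). All 3 called differences between control sets involve ACO1, where 2 arrays share an individual label, and the Arntl call was kept without either of them. Between ACO1 and chow controls FCO1, which differed in 12.9% of all genes, 2 of the 10 were called. Per1 was at 9.92, 9.37, 10.32 and 7.95 in ACO1 and 8.01, 7.68, 7.64 and 6.81 in FCO1 (1.86 ± 0.46, adjusted p = 0.0107), with an overlap from ACO1 replicate 4. Without ACO1 replicate 3 its call was lost (1.55, adjusted p = 0.0643). Per2 ran the other way, at 6.24, 4.87, 6.49 and 6.69 in ACO1 and 7.69, 6.93, 7.38 and 6.84 in FCO1 (-1.14 ± 0.37, adjusted p = 0.0375). Its call was lost without any 1 of 6 of the 8 mice, at an adjusted p of up to 0.206 without ACO1 replicate 2, and a second Per2 probe set gave 0.98 (adjusted p = 0.0859).

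Treated groups were compared with their controls to see where an exposure went with a different state of the clock. Over the 46 groups, 15 of 460 gene comparisons were called, beside 0.751% of all comparisons, and 78 of 460 had an unadjusted p under 0.05, beside 10.4%. The 15 calls fell in 3 groups: 8 genes at 4000 ppm methylene chloride, 6 at 3000 ppm and 1 in 2,3-benzofuran. In the other 43 groups the lowest adjusted p of the 10 genes was 0.0508.

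**Figure D2:**
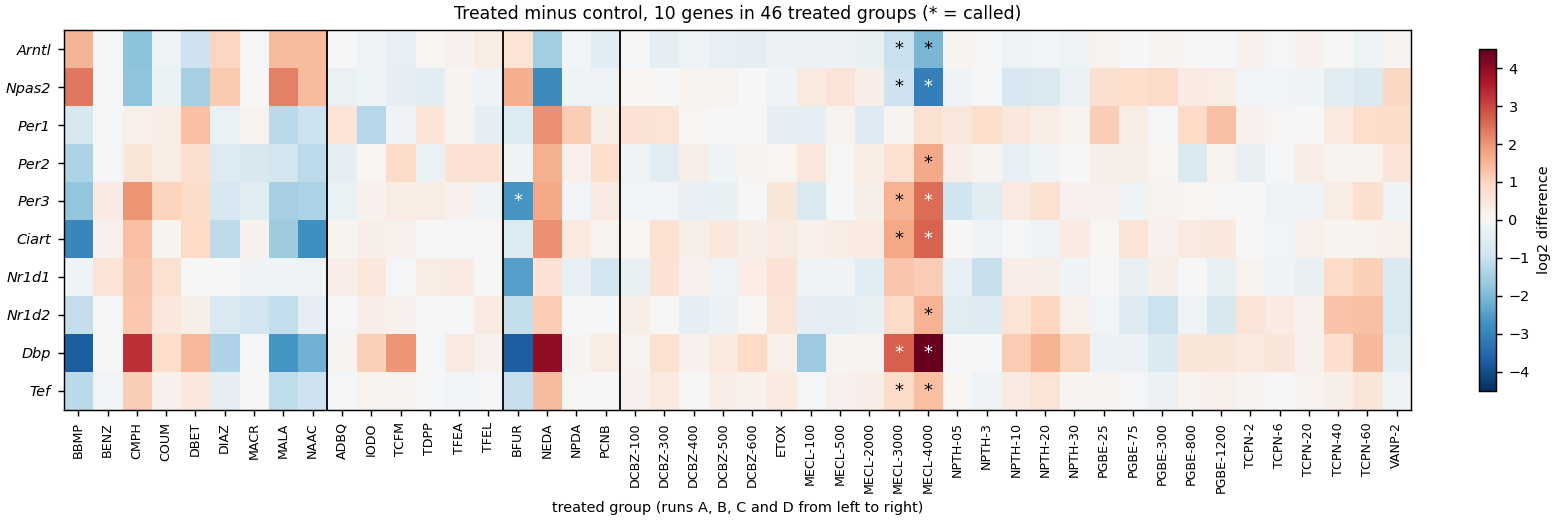
Log2 difference (treated minus control, colour) of the 10 genes (rows) in 46 treated groups (columns, named by the codes and doses in the text, NPTH-05 for 0.5 ppm naphthalene, with vertical lines between runs). Stars mark the 15 called differences, 14 of them in the 2 highest methylene chloride groups.

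Methylene chloride at 4000 ppm had the most called clock genes of the 46 treated groups. Of the 10 genes, 8 were called, in a comparison that called 2.92% of all genes (531 of 18193), with 6 higher and 2 lower. The median difference of the 10 was 1.45, against 0.02 over all genes. The 2 lower genes were the activators and the higher ones were Per2, Per3, Ciart, Nr1d2, Dbp and Tef. Here 7 of the 8 called genes did not overlap with the 5 ACO4 controls. The share of all genes without overlap was not counted, so this only describes the 8 genes.

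The activator Npas2 was at 4.99, 6.36, 4.32 and 4.30 in mice at 4000 ppm, against 7.34, 8.02, 8.25, 8.37 and 8.26 in ACO4 mice. That is 8.33-fold lower, a difference of -3.06 ± 0.24 (SE; limma adjusted p = 1.97e-18). Its partner Arntl was at 9.0, 9.07, 9.04 and 5.79 at 4000 ppm, against 10.57, 10.50, 10.18, 10.01 and 10.11 in ACO4, 4.13-fold lower (-2.05 ± 0.24, adjusted p = 3.42e-10). All 4 treated mice lie below all controls in both genes, with replicate 4 far below the other treated mice in Arntl. Without that mouse the Arntl difference was -1.24 and still called (adjusted p = 1.52e-07). A second, dimmer Arntl probe set, whose deviations from the group means had r = 0.003 with those of the first, gave 0.58 (adjusted p = 0.24), so the direction holds for the brighter probe set only. A second Npas2 probe set gave -1.44 (adjusted p = 0.0532).

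Among the repressors, Per3 was at 9.08, 8.63, 9.08 and 9.97 at 4000 ppm, against 6.08, 6.96, 6.53, 6.65 and 7.20 in ACO4, 5.68-fold higher (2.51 ± 0.44, adjusted p = 2.31e-05). Ciart was at 7.75, 6.66, 6.05 and 9.81, against 5.11, 5.19, 4.51, 4.90 and 4.76 in ACO4, 6.39-fold higher (2.67 ± 0.42, adjusted p = 1.56e-06). Per2 was at 8.91, 7.65, 8.51 and 9.16, against 6.66, 7.14, 6.58, 7.06 and 6.83 in ACO4, 3.26-fold higher (1.70 ± 0.35, adjusted p = 0.000417). All 3 repressors were higher in every treated mouse than in every control, and Ciart, like Arntl, was most extreme in replicate 4. Without replicate 4 the Ciart difference was 1.93 (adjusted p = 0.0016), and a second Per2 probe set gave 0.68 (adjusted p = 0.303). Per1, whose controls ranged from 6.42 to 8.67, gave 0.70 ± 0.68 (adjusted p = 0.657).

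The nuclear receptor Nr1d2 was at 11.52, 12.18, 11.94 and 12.53 at 4000 ppm, against 9.95, 10.09, 9.53, 11.18 and 11.63 in ACO4 (1.56 ± 0.48, 2.95-fold, adjusted p = 0.0392). It is the 1 called gene whose groups overlap, and its call was lost when any 1 of 6 of the 9 mice was left out, at an adjusted p of up to 0.144 without MECL-4000 replicate 4. A second Nr1d2 probe set gave 1.56 (adjusted p = 0.136). Nr1d1 was at 10.08, 10.47, 10.54 and 10.66, against 8.93, 8.80, 9.47, 9.15 and 10.28 in ACO4, and was not called (1.11 ± 0.75, adjusted p = 0.469).

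Of the outputs, Dbp was at 12.00, 11.21, 11.24 and 13.29 at 4000 ppm, against 6.95, 7.14, 7.23, 7.68 and 8.28 in ACO4. The difference of 4.48 ± 0.59 is 22.3-fold (adjusted p = 9.32e-09), the largest of any gene of the set among the called differences between 2 groups. Tef was at 11.47, 11.06, 11.22 and 12.03, against 9.93, 9.65, 10.14, 10.18 and 10.62 in ACO4, 2.54-fold higher (1.34 ± 0.20, adjusted p = 4.19e-07). Both output genes were separated from the controls in every mouse, though a second Tef probe set gave 0.95 (adjusted p = 0.117).

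At 3000 ppm all 10 genes had the sign they had at 4000 ppm, and the differences of the called genes were smaller. Of the 10 genes, 6 were called, in a comparison that called 3.05% of all genes, with a median difference of 0.85 for the 10 against 0.05 over all genes. Dbp was at 8.76, 10.25, 10.00 and 11.55 at 3000 ppm, 6.43-fold above ACO4 (2.68 ± 0.59, limma adjusted p = 0.00161), with no overlap. Ciart was at 5.79, 6.60, 6.40 and 7.71 (1.73 ± 0.42, adjusted p = 0.00489) and Per3 at 7.33, 8.65, 8.40 and 8.60 (1.56 ± 0.44, adjusted p = 0.0187). Tef was at 10.61, 10.99, 10.83 and 11.36 (0.85 ± 0.20, adjusted p = 0.00378), where the lowest treated mouse lies just under the highest control. Both activators were lower, Arntl at 9.43, 9.42, 9.31 and 8.89 (-1.01 ± 0.24, adjusted p = 0.00444) and Npas2 at 7.45, 7.20, 7.41 and 6.47 (-0.92, adjusted p = 0.0114), the last with an overlap. Per1, Per2, Nr1d1 and Nr1d2 gave 0.11, 0.69, 1.24 and 0.85 without a call. Without MECL-3000 replicate 4, the calls of Ciart (adjusted p = 0.0739), Npas2 (0.135) and Per3 (0.0809) were lost. The call of Per3 was also lost without replicate 2 (0.0513), replicate 3 (0.0527) or ACO4 replicate 1 (0.0607). Second probe sets gave 0.31 for Arntl (adjusted p = 0.556), -0.28 for Npas2 (0.787) and 0.72 for Tef (0.244) at this dose.

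**Figure D3:**
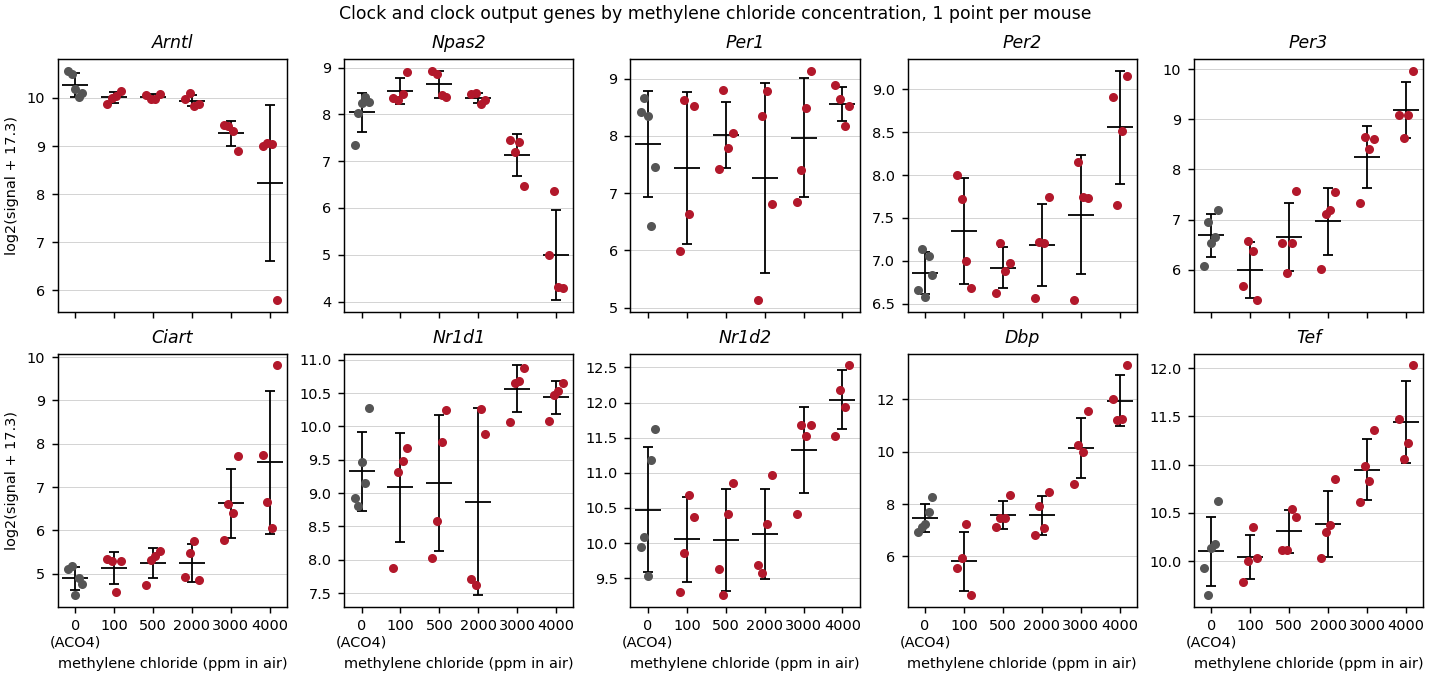
Log2 level (vertical axes) of the 10 genes in each mouse by methylene chloride concentration (horizontal axes, equally spaced), with mean and SD bars; 0 ppm is the air control set ACO4. Dbp group means are 7.46 at 0 ppm, 5.82, 7.59 and 7.56 at 100, 500 and 2000 ppm, 10.14 at 3000 ppm and 11.93 at 4000 ppm.

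The shift was seen at the 2 highest concentrations. Mean Dbp was 7.46 in ACO4 and 5.82, 7.59, 7.56, 10.14 and 11.93 at 100, 500, 2000, 3000 and 4000 ppm. Mean Arntl was 10.27 in ACO4 and 10.01, 10.03, 9.95, 9.26 and 8.23 along the same doses, and mean Npas2 was 8.05 in ACO4 and 8.50, 8.64, 8.36, 7.13 and 4.99. None of the 10 genes was called at 100, 500 or 2000 ppm. At 100 ppm Dbp was at 5.57, 5.94, 7.24 and 4.53, mostly below the controls. A linear trend over the ranks of control and doses was called for the same 8 genes as at 4000 ppm, while 3.5% of all genes were called. The fitted change between control and 4000 ppm was 5.05 ± 0.50 for Dbp (limma adjusted p = 1.09e-13), -2.81 ± 0.21 for Npas2 (5.7e-21) and -1.80 ± 0.21 for Arntl (4.93e-11). Per1 (0.62) and Nr1d1 (1.39) were not called. The trends of the other 4 dose series, naphthalene, PGBE, 1,4-dichlorobenzene and 1,2,3-trichloropropane, called none of 40 gene comparisons, beside 0.51% over all genes, with a lowest adjusted p of 0.121. The trend and both dose comparisons share the ACO4 mice.

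Other clock genes moved at 4000 ppm in smaller numbers. Of 11 measured core clock genes outside the 10, 1 was higher and 2 were lower, with a median of -0.24. Over all genes, 2.92% were called in this comparison and the median was 0.02. Bhlhe40, a repressor of the activator pair, was higher (0.88, adjusted p = 0.0449). Cry1, a partner of the Per proteins in repression, was lower (-1.13, adjusted p = 0.00829), and so was Nfil3, which opposes Dbp and Tef at D-boxes (-1.35, adjusted p = 1.74e-07). Of 11 measured clock-controlled liver genes, 4 were higher and 1 was lower, with a median of 0.85. The higher ones were Rgs16 (2.94, adjusted p = 0.00967), the deubiquitinase gene Usp2 (1.87, 0.0429), the cell cycle kinase gene Wee1 (1.5, 0.0108) and Gys2, the liver glycogen synthase (0.76, 0.00286). Insig2, which restrains sterol synthesis, was lower (-0.79, 1.16e-05). Of 9 glucocorticoid and fasting genes, 2 were lower, G6pc (-0.91, 0.00614) and Igfbp1 (-1.19, 0.0431), and of 6 temperature-responsive genes none was called. At 3000 ppm no gene of these 4 lists was called, beside 3.05% of all genes.

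RNA quality and cell markers were compared beside these results. RNA integrity was 9.1 to 9.2 at 4000 ppm and 8.9 to 9.1 in the 3 ACO4 mice with a value, and the log2 Gapdh ratio was -0.51 to -0.42 at 4000 ppm and -0.47 to -0.41 in ACO4. The summed signals of all 9 marker lists (hepatocyte, Kupffer, endothelial, stellate, bile duct, lymphocyte, erythroid, pancreas and adipose) overlapped between 4000 ppm and ACO4, and 1 marker was called, the stellate gene Reln (-0.79). At 3000 ppm 2 of the 9 sums did not overlap: Kupffer markers summed to 10491 to 12940 at 3000 ppm and 14615 to 15806 in ACO4, and erythroid markers to 1098 to 1747 at 3000 ppm and 537 to 1020 in ACO4. The called markers at 3000 ppm were the endothelial gene Stab2 (-0.62, adjusted p = 2.55e-06) and Reln (-0.90, 7.81e-06), both lower, and the erythroid gene Alas2 (0.93, 0.0118) and the pancreatic gene Cpb1 (1.09, 0.00524), both higher. Their part in the result at 3000 ppm was not tested. A fit to the 2 groups alone has fewer degrees of freedom and takes the spread from those 2 groups only. It kept 3 of the 15 calls in treated groups, Dbp, Npas2 and Per3 at 4000 ppm. The Arntl call at 4000 ppm, where the 4 mice had an SD of 1.62, was lost (limma adjusted p = 0.195).

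2,3-Benzofuran at 240 mg/kg went with lower Per3 and lower, uncalled Dbp than in its control set CornOil-C. CornOil-C itself had the 5th highest mean Per3 (8.73) and Dbp (11.03) of the 60 groups. Those means were 6.06 and 7.32 in BFUR, and 7.16 and 7.96 in RodentChow-C, the chow controls of the same run. Per3 was at 6.51, 5.10 and 6.56 in BFUR mice, against 7.45, 9.14 and 9.60 in CornOil-C mice, 6.37-fold lower with no overlap (-2.67 ± 0.65, limma adjusted p = 0.0352). This was the 1 call among the 10 genes, while 3.28% of all genes were called, and 6 of the 10 had an unadjusted p under 0.05, beside 20.6%. Dbp was at 7.79, 7.38 and 6.80 in BFUR mice, against 8.49, 12.16 and 12.45 in CornOil-C (-3.71, 13.1-fold, adjusted p = 0.123). CornOil-C replicate 1 also stood apart from the other 2 controls in Npas2, at 8.28 against 4.85 and 5.56, and in Arntl, at 10.11 against 9.05 and 8.51. In RodentChow-C the means of Npas2 and Arntl were 8.30 and 10.01, nearer to replicate 1 than to the other 2. Of the other clock genes, Cry2 (-0.85, adjusted p = 0.0272) and the kinase gene Csnk1d (-0.60, 0.0297) were lower, and of the clock-controlled genes the fatty acid elongase gene Elovl3 was higher (1.92, 0.00392). The Per3 call was lost without any 1 of 5 of the 6 mice, at an adjusted p of up to 0.13 without BFUR replicate 2, and was kept without CornOil-C replicate 1 (-3.31, 0.0169). It was also lost with all controls of the run pooled (-1.89, adjusted p = 0.0521) and with quantile normalisation (-2.42, 0.0656). A second Per3 probe set gave -1.31 (adjusted p = 0.174). Of the 9 marker sums 6 did not overlap, among them hepatocyte markers at 268055 to 271811 in BFUR and 274132 to 310799 in CornOil-C and Kupffer markers at 10207 to 12754 in BFUR and 14916 to 18848 in CornOil-C. The Kupffer gene Csf1r was called lower (-0.65, adjusted p = 0.0235). The part of these markers was not tested.

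NEDA showed the directions of high methylene chloride, without a call among the 10 genes. Of the 10 genes, 9 had an unadjusted p under 0.05, beside 17.4% of all genes, and 0.693% of all genes were called. Of 11 measured core clock genes outside the 10, 1 was called lower, and so was 1 of 11 measured clock-controlled liver genes. Arntl was at 8.35, 8.08 and 8.89 in NEDA mice, against 10.27, 10.26 and 9.49 in RodentChow-C (-1.57 ± 0.36, limma adjusted p = 0.0588). Npas2 was at 6.29, 5.24 and 4.77 in NEDA mice, against 8.56, 8.61 and 7.72 in RodentChow-C (-2.87 ± 0.68, adjusted p = 0.0622). Dbp was at 11.47, 12.06 and 12.27, against 5.98, 7.94 and 9.95 in RodentChow-C (3.98 ± 1.29, 15.8-fold, adjusted p = 0.142). In the corn oil controls CornOil-C of the same run, Dbp ranged from 8.49 to 12.45. The groups do not overlap in any of the 3 genes. The share of all genes without overlap was not counted, so this only describes the 3 genes. RNA integrity was lower in NEDA, 7.7 to 8.1 against 8.8 to 9.1 in RodentChow-C, and with the Gapdh ratio as a covariate the Dbp difference was 1.81 (adjusted p = 0.841) and that of Npas2 -1.95 (0.65). With the order of the animal number in the model, a term added after the data were seen, limma called Arntl (adjusted p = 0.0461) and Npas2 (0.0411), which is not an independent test. Bile duct markers summed to 187 to 299 in NEDA and 460 to 633 in RodentChow-C, 1 of 4 sums of 9 that did not overlap, and their part was not tested. Between NEDA and NPDA, another compound with a naphthalene ring, at the same dose in the diet, Arntl differed by -1.45 ± 0.36 (adjusted p = 0.0864) and Dbp by 3.86 (adjusted p = 0.201), neither of them called.

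In run A, wide spread among mice went with large differences and no calls. CMPH mice had Dbp at 11.68, 11.83, 11.41 and 13.39, against 11.24, 7.75, 7.60 and 8.55 in WCO1 (3.29 ± 1.28, 9.78-fold, adjusted p = 0.97), so all treated mice lie above all controls. Arntl in CMPH was at 8.43, 7.89, 8.74 and 5.15 (-1.85 ± 0.60, adjusted p = 0.774). Of the 10 genes, 7 had an unadjusted p under 0.05 there, beside 4.68% of all genes. Against CCO3, the set labelled water with titles like corn oil, Dbp differed by 2.89 and Arntl by -1.39.

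The 4 diet groups of run A share the FCO2 controls, which were the extreme control set. Mean Dbp was 8.86 in BBMP, 10.84 in DIAZ, 10.06 in MALA and 10.29 in NAAC, against 12.44 in FCO2. BBMP had 7 of 10 genes at an unadjusted p under 0.05, beside 4.19% of all genes, and a fitted Dbp difference of -3.71 with the run code as a block (adjusted p = 0.94). Its mice were at 6.72, 7.26, 6.85, 10.19 and 13.28. Npas2 in MALA, at 7.83, 7.70, 8.40, 7.40 and 5.15, had the lowest adjusted p outside the 3 groups with a call (2.27, 0.0508). With the order of the animal number in the model it was called (2.17, adjusted p = 0.00134). That term was added after the data were seen and takes up spread in genes that follow the number, so this call is not an independent test.

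Within groups, most of the clock genes of a mouse moved together. Deviations from the set mean were related to those of Arntl over the 59 control arrays, with permutation p-values within sets and adjustment over 9 relations. Dbp had r = -0.76 (rho = -0.74), Tef -0.66 (-0.63), Per3 -0.60 (-0.61), Nr1d2 -0.40 (-0.48), Per2 -0.37 (-0.36) and Npas2 0.59 (0.43), and these 6 had an adjusted permutation p under 0.05. How many of all genes would pass the same test was not counted, so the 6 only describe these genes. For Dbp and Tef the unadjusted p was 1e-05, the smallest the permutations can give, and 4.5e-05 after adjustment. Per1 (0.05), Ciart (-0.09) and Nr1d1 (-0.22) did not pass. Dbp deviated to the opposite side of Arntl in 45 of 59 control arrays (76.3%), and in 130 of 183 treated arrays (71.0%). Without the 2 arrays farthest in Arntl, r was -0.73 for Dbp, -0.62 for Tef, -0.57 for Per3, 0.43 for Npas2 and -0.36 for Nr1d2. That of Per2 was also -0.36, with an adjusted p of 0.0609.

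Within single runs the relation was as follows, with no test of a difference between runs. Arntl and Dbp had r = -0.79 in run A, -0.35 in run B, -0.91 in run C and -0.70 in run D. For Npas2 it was 0.73, 0.18, 0.86 and -0.08 in runs A, B, C and D, and of these the value of run A alone passed the adjusted permutation test (adjusted p = 0.0294). Run C has 6 control arrays in 2 sets, and no relation passed there. Ciart gave -0.23, 0.13, -0.90 and 0.46, and Per1 gave -0.13, 0.40, -0.52 and 0.51. In run D both passed the adjusted permutation test on the side of Arntl (adjusted p = 0.0406 for Ciart and 0.024 for Per1). In the 183 treated arrays r with Arntl was -0.72 for Tef, -0.70 for Dbp, 0.68 for Npas2, -0.60 for Ciart and -0.59 for Per3. Over all 242 arrays the closest pairs were Dbp with Tef (r = 0.87), Dbp with Per3 (0.81) and Per3 with Tef (0.79).

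**Figure D4:**
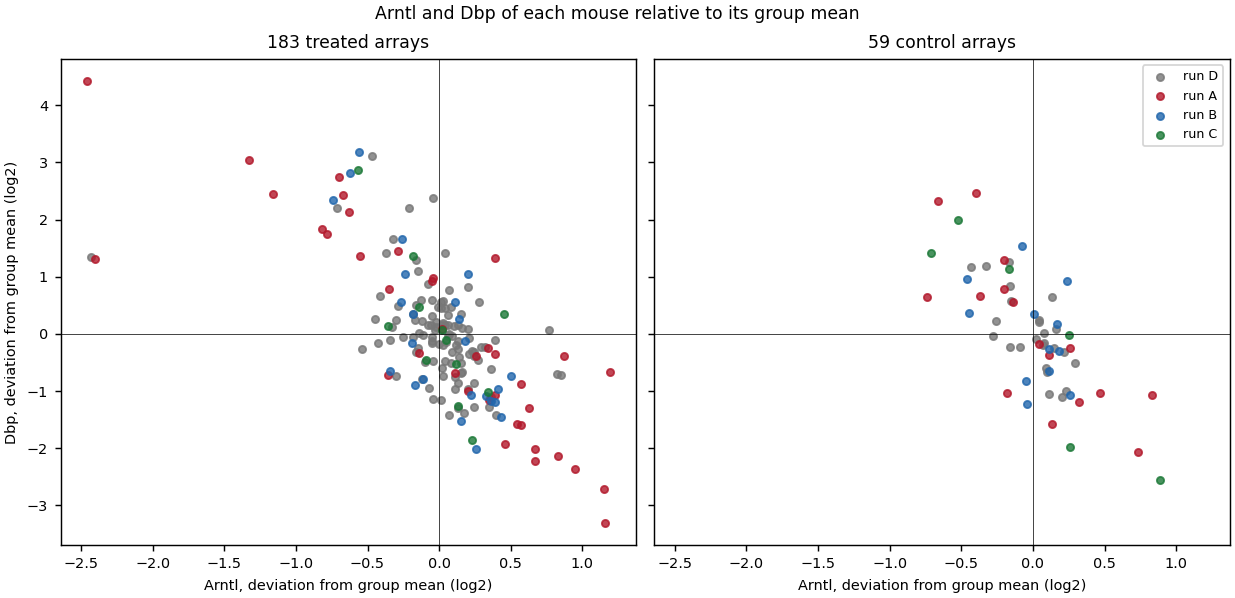
Deviation of Dbp from its group mean (vertical, log2) against that of Arntl (horizontal, log2) for 183 treated arrays (left) and 59 control arrays (right), coloured by run. Points run from upper left to lower right in both panels, with r = -0.70 in treated and -0.76 in control arrays.

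The deviations of a mouse also followed its animal number in the array titles, a relation looked for after the data were seen. Mice of a group were ranked by that number, and the rank was set against the deviation from the group mean over 242 arrays in 60 groups. Nr1d2 had r = 0.70, Nr1d1 0.65, Tef 0.63, Per3 0.60 and Dbp 0.56, while Npas2 had -0.49 and Arntl -0.42. Each of these 7 had an adjusted permutation p of 1.43e-05 over 10 relations. Ciart (0.20, 0.00757), Per2 (0.17, 0.0255) and Per1 (-0.15, 0.0498) had weaker relations, and without the 2 farthest arrays that of Per1 no longer passed (-0.12, 0.0979). Spearman's rho was 0.72 for Nr1d2, 0.69 for Nr1d1, 0.60 for Dbp and -0.44 for Arntl. For Ciart (0.12, permutation p = 0.106), Per2 (0.11, 0.124) and Per1 (-0.12, 0.109) rho did not pass even before adjustment. By the size of r, Nr1d2 stood 2nd among 18193 genes, Nr1d1 6th, Tef 8th, Per3 13th, Dbp 28th and Npas2 73rd.

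The highest-numbered mouse had more Dbp than the lowest-numbered one in 51 of 60 groups, and less Arntl in 45 of 60. The relation of Dbp held in run A (r = 0.77), run B (0.49), run C (0.70) and run D (0.49), and that of Nr1d2 was 0.76, 0.59, 0.85 and 0.69 in the same runs. Nr1d1 had 0.39 in run A and 0.83 in run D. Ciart had 0.70 in run A and -0.08 in run D, and Per1 had 0.35 in run A and -0.31 in run D, with no test of a difference between runs. What the animal number stands for beside identity is not given in the sources used here. With the rank as a term of the model, all 26 calls in treated groups, control sets and trends were kept, the methylene chloride calls among them. The rank is centred within each group, so this term takes up spread within groups and leaves differences between groups nearly unchanged. It cannot adjust for animal numbers that differ between groups, and their part in the calls was not tested. In the methylene chloride groups the numbers rise with each step of the dose, and those of ACO4 are higher still. Among the dosed groups, dose and animal number therefore cannot be told apart. Each comparison with ACO4 also sets different blocks of numbers against each other.

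**Figure D5:**
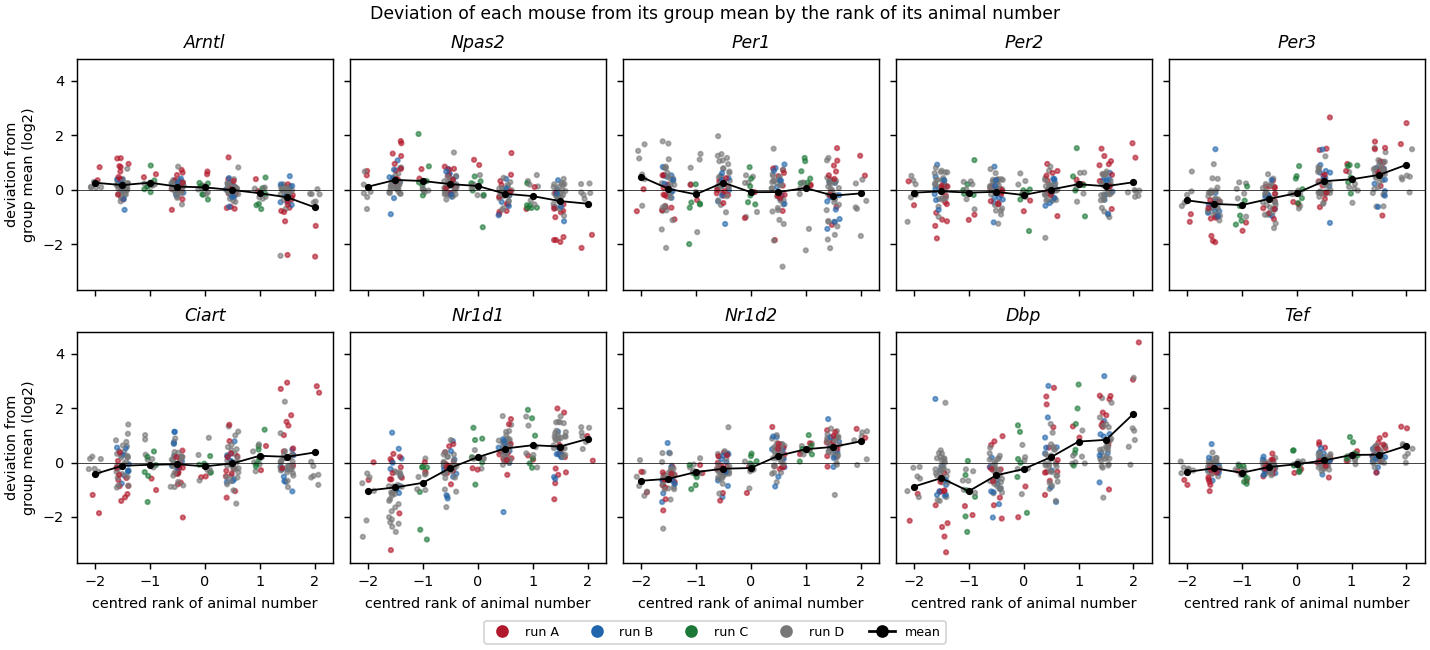
Deviation of each mouse from its group mean (vertical, log2) by the centred rank of its animal number within the group (horizontal), for the 10 genes in 242 arrays, coloured by run, with black points at the mean of each rank. The means climb along the rank for Nr1d1, Nr1d2, Per3, Dbp and Tef and decline for Arntl and Npas2.

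Genes outside the set with the most similar pattern were ranked by Pearson's r of the deviations over the 242 arrays, as a description across mice that share runs and handling. With Arntl the highest were Lgalsl and Chka (0.75 each), Tubb2a (0.66), Pnrc1 (0.64), Rnf125 (0.63), C730049O14Rik, Nfil3 and Clpx (0.60 each). The lowest with Arntl were Usp2 (-0.56), Clmn and Gpr146 (-0.53 each), Slc2a5 and Pcsk4 (-0.50 each), Pex26 (-0.49), Cry2 and Mcm10 (-0.47 each). With Dbp the highest were Gpr146 (0.66), Clmn (0.64), Eva1a (0.63), Tns2 and Cry2 (0.61 each), Cyth1 and Bhlhe40 (0.54 each) and Pex26 (0.53). The lowest with Dbp were Pnrc1 (-0.80), Nfil3 (-0.79), Lgalsl (-0.75), Tubb2a (-0.71), Chka (-0.69), Ddc and Cry1 (-0.65 each) and Rnf125 (-0.64). Nfil3 and Cry1, both clock genes, thus stood on the side of Arntl, and Cry2 and Bhlhe40 on the side of Dbp.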

How the data were processed

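The deposited files hold 1 linear intensity per probe set and array, with GCOS 1.0 named in the submitters' processing notes. With 2% trimmed at both ends the mean was 500 in 240 arrays, and the other 2 (vanadium pentoxide replicate 4 and NPDA replicate 2) were multiplied to reach 500. Each of 18193 genes was taken from its brightest probe set, and log2 was taken after adding 17.3, the 20th percentile of the signals in the median array. limma 3.58.1 (R 4.3.3) was fitted per run with 1 mean per group and, in run A, the run code as a block, two-sided. It was tested on simulated data. Relations used 100000 permutations within groups (numpy 2.4.6, Python 3.11.15). Each ± beside a difference is its SE. The number of arrays limits the precision. All 10 genes are named, with values per array where called. Listed genes are named where called in a comparison that called any of the 10. The 8 most and least similar genes to Arntl and to Dbp are also named. The genes and lists were chosen with earlier results of these data known. Alternatives were other pseudocounts, quantile normalisation, no rescaling, a filter on dim genes, second probe sets, pooled controls, no block, fits to 2 groups, linear dose, left-out mice and, chosen after seeing the data, the Gapdh ratio, the animal number and the second probe sets beside the brighter one of Arntl. Replicate numbers follow accession order and pair nothing.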

Additional observations from a re-analysis of the deposited data

Results flagged for a closer look

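Of 51 sets of 1 gene in 1 group of 4 or 5 mice, chosen from the groups described mouse by mouse, 4 held a mouse farther from the others than Dixon's 95% limit, where chance gives about 1 in 20. Arntl was at 5.79 in MECL-4000 replicate 4, against 9.0 to 9.07 in the other 3 mice. Nr1d2 was at 10.41 in MECL-3000 replicate 1, against 11.53 to 11.68 in the others. Ciart was at 8.86 in CMPH replicate 4, against 5.10 to 5.35 in the others. Arntl was at 9.45 in CCO4 replicate 4, against 10.02 to 10.08 in the others. Both MECL-4000 replicate 4 and CMPH replicate 4 had the lowest Arntl and the highest Dbp of their groups, 13.29 and 13.39.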

How the results depend on the processing

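The 15 member calls in treated groups became 3 in fits to 2 groups alone, 7 with second probe sets and 27 with the animal number in the model. The 3 calls between control sets became 0 in fits to 2 groups alone, 1 with the Gapdh ratio, 5 with dim genes left out and 11 with the animal number. The animal number was put in after these genes were seen to follow it within groups, so the calls it adds are not an independent test. Leaving out 1 mouse gave 12 to 18 calls in treated groups, 1 to 6 between control sets and 8 to 8 in trends. The 6 relations to Arntl became 3 within run A, 0 within run B and 0 within run C, where the runs have fewer arrays. They became 0 with second probe sets, that of Arntl included, whose deviations had r = 0.003 with those of the brighter one. With second probe sets of the other genes beside the brighter one of Arntl, 4 relations passed. With second probe sets 4 called values reversed: Per2 in ACO1 vs FCO1 (0.98) and Arntl in MECL-3000 vs ACO4 (0.31), MECL-4000 vs ACO4 (0.58) and the MECL trend (0.20). Second probe sets, that of Arntl included, also turned r with Arntl to 0.16 for Per2 and 0.20 for Tef, and in run D r of Npas2 was -0.08. The cause of these changes was not tested. No paired analysis was possible because replicate numbers only name mice. Of 26 calls, 24 were kept with the Gapdh ratio, 25 with quantile normalisation, 25 with values as deposited and 26 with either other pseudocount. The 59 control mice limit within-run relations.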

Other observations

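Smaller differences in the nuclear receptor Nr1d2 stood at the upper doses of 1,2,3-trichloropropane. Nr1d2 averaged 11.28 ± 0.50 at 40 mg/kg and 11.30 ± 0.34 at 60 mg/kg (SD, n = 4 each), against 9.99 ± 0.32 in CCO6 (n = 5), differences of 1.29 ± 0.48 (SE; limma adjusted p = 0.126) and 1.31 ± 0.48 (0.249), neither called. Dbp averaged 8.43 ± 1.62 at 60 mg/kg, against 6.98 ± 0.67 in CCO6 (adjusted p = 0.31). In mice that inhaled 20 ppm naphthalene, Dbp averaged 8.55 ± 1.65, against 6.97 ± 0.74 in ACO5, a difference of 1.58 ± 0.59 (adjusted p = 0.348), and Npas2 7.73 ± 0.71, against 8.38 ± 0.31 in ACO5 (-0.65, adjusted p = 0.351). At the higher dose of 30 ppm Dbp averaged 7.96 and Npas2 8.09, and the lowest limma adjusted p of the 10 genes was 0.999. Trichlorofluoromethane went with Dbp at 9.73 ± 1.65, against 7.74 ± 0.33 in CCO4 (1.99 ± 0.95, adjusted p = 1.0). PGBE at 300 ppm went the other way, with mean Npas2 at 8.49 against 7.63 in ACO3 and mean Dbp at 6.84 against 7.50. The lowest limma adjusted p of the 10 genes there was 0.0771. These uncalled differences are examples and not a full list.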
